A study of Homo sapiens and Mus musculus with 30 samples.

Results

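The 8 small RNA libraries of HEK293A cells, 4 made from RNA bound to AGO2 and 4 made from total small RNA, were compared pair by pair. They are 8 of the 30 samples of the series, and they were chosen by their labels, so no measured value entered the choice. HEK293A is a human embryonic kidney cell line. AGO2-bound RNA was pulled down with an anti-AGO2 antibody, and the matching total small RNA library of the same condition served as its partner. The 4 conditions were LIN28B knockout cells with let-7a transfected (KO let7), LIN28B knockout cells labelled wt for transfection (KO wt), and cells at the X3 level of LIN28B with the same 2 transfection states (X3 let7 and X3 wt). X3 is one of 4 rising levels of a LIN28B transgene, which doxycycline (10 ng/ml) switches on. Mature let-7a was transfected at 10 nM. All groups share the HEK293A line and the miRvana small RNA isolation. Each condition has 1 library per fraction, so an SD below is a spread over 4 conditions, and p-values measure the consistency of a difference over conditions and not over repeat cultures.

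Argonaute proteins hold a small guide RNA and use its seed, the bases near its 5′ end, to find target transcripts; AGO2 is the human member that can also cut a target. microRNAs are cut from hairpin precursors by Drosha and Dicer before they are loaded, whereas total small RNA also holds fragments of transfer RNA, mitochondrial RNA and messenger RNA. LIN28B binds let-7 precursors and blocks their maturation, and let-7 family members share a seed and act as brakes on growth genes.

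In AGO2-bound libraries 3 features held nearly all counts, and mitochondrial counts were almost gone. The library totals were 95887 to 172995 counts in AGO2-bound libraries and 73083 to 150841 counts in total libraries. The 3 most abundant features took 97.8% to 98.3% of AGO2-bound counts, against 73.5% to 80.2% of total counts. Outside these 3, only 2066 to 3412 counts were left in each AGO2-bound library, against 19337 to 31821 in each total library, so precision is far lower for every other feature than the library totals imply. In polyA-selected total RNA of other HEK293A samples of the series, LIN28B, the target of the knockout, was at 81.2 RPKM at X3. It was at 3.60 RPKM in the X0 knockout, with 1 library each. How these samples relate to the small RNA cultures is not stated. LIN28B itself had 2 counts in all 8 small RNA libraries, which are not a check of the label.

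The feature names need care before the values are read. The feature deposited as hsa-mir-125a (ENSG00000269959.1) now carries the symbol SPACA6-AS1, a long non-coding RNA on the minus strand of chromosome 19 that spans the plus-strand genes MIR99B, MIRLET7E and MIR125A in RefSeq (GRCh38.p14). MIR3184 lies on the minus strand of chromosome 17 and its hairpin overlaps the plus-strand MIR423 hairpin over 75 bases. MIR3074 overlaps MIR24-1, on the other strand, over 68 bases on chromosome 9. The ID deposited as MIR3615 is now SLC9A3R1-AS1, minus strand of chromosome 17, opposite the gene MIR3615. The MIR486 feature was not matched to a RefSeq gene, so no strand, overlap or sequence is given for it. The mature microRNAs of these places are shown because the counts of the leading features cannot be told apart from theirs; sequences are from RefSeq, 5′ to 3′, with the seed (bases 2 to 8) in capitals.
hsa-miR-99b-5p: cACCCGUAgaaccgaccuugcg
hsa-let-7e-5p: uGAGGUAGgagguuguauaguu
hsa-miR-125a-5p: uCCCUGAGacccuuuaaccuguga
hsa-let-7a-5p: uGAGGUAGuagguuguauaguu
hsa-miR-423-5p: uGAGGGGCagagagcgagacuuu
hsa-miR-3184-3p: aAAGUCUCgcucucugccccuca
hsa-miR-423-3p: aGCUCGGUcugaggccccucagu
hsa-miR-3184-5p: uGAGGGGCcucagaccgagcuuuu
hsa-miR-24-3p: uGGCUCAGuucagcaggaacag
hsa-miR-3074-5p: gUUCCUGCugaacugagccag
hsa-miR-196b-5p: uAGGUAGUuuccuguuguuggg
hsa-miR-3615: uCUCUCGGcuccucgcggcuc

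The first 3 sit on the plus strand of chromosome 19 in GRCh38.p14, at chr19:51692618-51692639 for miR-99b-5p, chr19:51692793-51692814 for let-7e-5p and chr19:51693268-51693291 for miR-125a-5p. let-7e-5p and let-7a-5p, the transfected microRNA, share the seed GAGGUAG and differ at 1 base, U9G, counted from the 5′ end of let-7a-5p. hsa-miR-423-5p is the exact reverse complement of hsa-miR-3184-3p over 23 bases, and hsa-miR-24-3p pairs in the same way with hsa-miR-3074-5p over a run of 20 bases. miR-423-5p and miR-3184-5p share the seed GAGGGGC although they come from opposite strands. miR-196b-5p belongs to MIR196B, which overlaps the HOXA-AS4 feature (now HOXA10-AS) on chromosome 7.

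Among 1086 microRNA features with a RefSeq hairpin of the same symbol, 30 have another hairpin on the opposite strand. Of those 30, 12 had any count, or 40%, against 59 of the other 1056, or 5.59%. The 12 held 165229 counts over the 8 libraries, nearly all from MIR3184, and the 59 held 821. MIR486 is in neither group, because no RefSeq hairpin of the same symbol was found. It had 177835 AGO2-bound and 43532 total counts. Features named for abundant microRNAs of many cell types (MIR21, MIR30A, MIR10A, MIR221, MIR191, MIR99B and MIR125A) were listed at 0 in all 8 libraries. How the authors' counting treated strand is not given here, and its part in these values was not tested. Values below therefore belong to the deposited feature, whichever strand its reads came from.

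The leading feature, hsa-mir-125a, was the most abundant in every library. It held 56.3%, 50.8%, 57.9% and 56.0% of counts in the AGO2-bound libraries (KO let7, KO wt, X3 let7 and X3 wt, an order kept for every list of 4 values below). In total small RNA it held 45.8%, 46.8%, 45.6% and 43.4%. The AGO2-bound values all lay above the total ones, and the counting error was small beside the difference: the 95% Clopper-Pearson interval of the AGO2-bound X3 let7 library, the shallowest of its fraction, ran over 57.6% to 58.2%. Such intervals cover counting error only. Its log2 fold change, AGO2-bound over total, was 0.28 ± 0.07 (SE; edgeR quasi-likelihood test, adjusted p = 0.0076), but scaling to microRNA counts alone gave -0.17, and the adjusted p was 0.068 without the X3 let7 pair and 0.25 with no low-count filter. miR-125a and miR-99b are conserved microRNAs of one cluster with let-7e, and this feature cannot separate them.

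MIR486 was the feature whose share differed most among the 3. It held 30.7%, 36.5%, 27.5% and 29.4% of AGO2-bound counts. In total small RNA it held 10.54%, 11.9%, 9.22% and 8.48%. No AGO2-bound library came near a total one, and the mean share was 31.0% ± 3.88 in AGO2-bound libraries and 10.0% ± 1.52 in total libraries (SD, n = 4 conditions each). The log2 fold change was 1.63 ± 0.08 (SE; edgeR, adjusted p = 1.49e-06), a 3.10-fold higher share, and it stayed positive under every scaling tried. miR-486 is known from muscle and developing red blood cells, where its host gene is ankyrin 1.

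MIR3184 went the other way in share. It held 11.3%, 10.9%, 12.4% and 12.6% of AGO2-bound counts. In total small RNA it held 17.2%, 21.5%, 19.2% and 27.0%. The groups did not overlap, and AGO2-bound values were the more even of the 2 sets. The log2 fold change was -0.83 ± 0.11 (SE; edgeR, adjusted p = 0.00028) on library totals but 2.94 with TMM scaling, so its direction depends on what it is scaled to.

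Ratios inside a library do not depend on scaling. MIR486 stood to hsa-mir-125a at 0.546, 0.719, 0.476 and 0.524 in AGO2-bound libraries, against 0.230, 0.255, 0.202 and 0.196 in total libraries. That is a 2.55-fold higher ratio, a log2 difference of 1.35 (exact two-sided permutation test, p = 0.0286, n = 4 each, adjusted p over 5 ratios = 0.0286). This p is the smallest that 4 libraries against 4 allow, and the test does not use the pairs. A paired sign-flip test of 4 pairs cannot go below 0.125. Both limits hold for all 5 ratios. MIR3184 stood to hsa-mir-125a at 0.201, 0.215, 0.215 and 0.225 in AGO2-bound libraries, against 0.375, 0.458, 0.421 and 0.623 in total libraries. All 4 AGO2-bound ratios lay below all 4 total ones, with a log2 difference of -1.11 (exact permutation test, p = 0.0286, adjusted p = 0.0286). Between MIR486 and MIR3184 the log2 difference was 2.46 (exact permutation test, p = 0.0286), a 5.49-fold higher ratio in AGO2-bound RNA. These ratios were chosen after the values were seen. In rank, MIR486 was the second and MIR3184 the third feature in all 4 AGO2-bound libraries, and they changed places in all 4 total libraries.

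**Figure D1:**
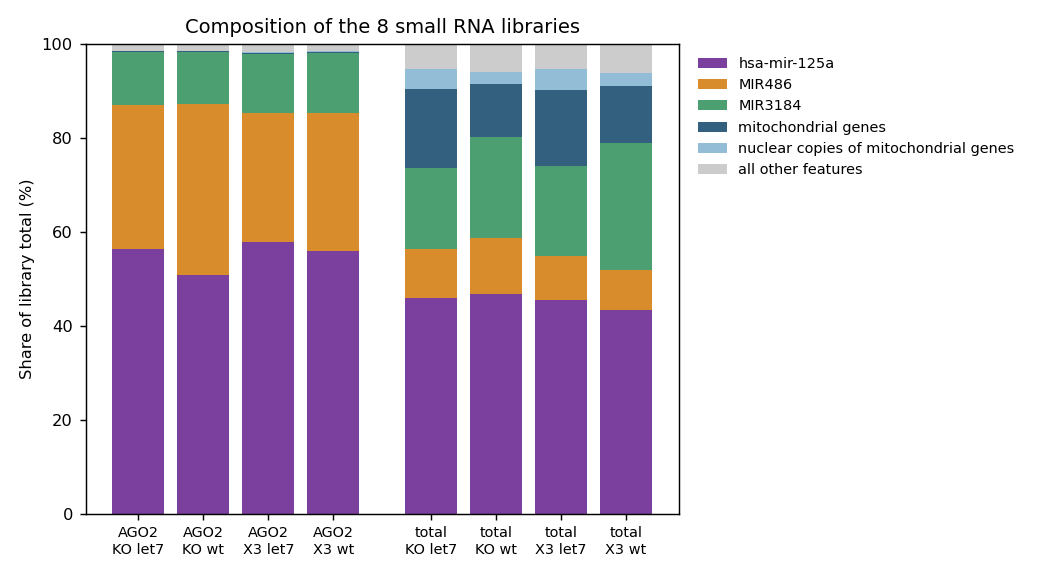
Share of the library total (%) taken by the 3 leading features, mitochondrial genes, their nuclear copies and all other features, 1 bar per library. The dark blue mitochondrial part is 11.3% to 16.9% in the total libraries and at most 0.313% in the AGO2-bound libraries.

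Mitochondrial RNA was far less abundant in AGO2-bound than in total small RNA. The mitochondrial genome encodes 13 subunits of the respiratory chain and ATP synthase, along with its own ribosomal and transfer RNAs. Genes of the mitochondrial genome made up 0.223%, 0.201%, 0.313% and 0.283% of AGO2-bound counts, against 16.9%, 11.3%, 16.3% and 12.1% of total counts. Set against hsa-mir-125a in the same library, mitochondrial counts were 67.5-fold lower in AGO2-bound RNA (log2 difference -6.08; exact permutation test, p = 0.0286, adjusted p = 0.0286, n = 4 each), with no overlap. The 13 messenger RNA genes averaged 0.228% ± 0.0423 in AGO2-bound libraries and 13.3% ± 2.71 in total libraries (SD, n = 4 conditions each; exact permutation test, p = 0.0286, adjusted over 4 classes 0.0286). The 22 mitochondrial transfer RNAs averaged 0.0256% ± 0.0107 in AGO2-bound libraries and 0.852% ± 0.179 in total libraries (same test, p = 0.0286, exact; adjusted p = 0.0286). With hsa-mir-125a left out of the library total, the difference in share was -23.9 percentage points for the messenger RNA genes and -1.50 for the transfer RNAs, against -13.1 and -0.827 with it. Mitochondrial ribosomal RNA was nearly absent, with 8 counts in the 4 AGO2-bound libraries and 28 in the 4 total libraries.

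The edgeR quasi-likelihood test, with the condition as a block and library totals as scaling, covered 74 features that passed a low-count filter out of 57820 in the table. At an adjusted p under 0.05, 6 features were higher in AGO2-bound RNA, which is 8.11% of those tested, and 64 were lower, which is 86.5%. The median log2 fold change over all 74 was -4.95. A feature could pass the filter through the total libraries alone, where counts outside the leading features were far more numerous. Of the 74, 6 had no count in any AGO2-bound library and could only come out lower. Among the 68 with a count there, 6 were higher and 58 lower, with a median of -4.81. The split and the median thus describe the features this filter let in, and not small RNA as a whole. With TMM scaling, which centres the fold changes on the bulk of features, values moved up by a median of 3.73 on the log2 scale and the split became 22 higher and 38 lower. The sign changed for 19 features, MIR3184, HOXA-AS4, MIR3074 and FSD2 among them. The counts do not record how much RNA each fraction held, so a fold change here is one of shares, not of amounts.

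All 21 mitochondrial genes tested were lower in AGO2-bound RNA on library totals. So were 86.5% of all 74 tested features, and the direction alone says little. The log2 fold changes of the 21 genes were -7.47 to -3.68. Their median was -5.85, against -1.99 over the 37 features that were neither mitochondrial genes nor nuclear copies. MT-ND2 and MT-TA turned slightly positive with TMM scaling. MT-ND5, a subunit of respiratory complex I and the most abundant mitochondrial feature, had 63, 91, 67 and 134 counts in AGO2-bound libraries, against 4129, 5100, 4320 and 6405 in total libraries. Its log2 fold change was -6.24 ± 0.23 (SE; edgeR, adjusted p = 4.85e-07) and still -2.48 with TMM scaling. MT-CYB, the cytochrome b of complex III, had 19, 8, 21 and 22 counts in AGO2-bound libraries, against 1490, 1645, 1484 and 2150 in total libraries, a log2 fold change of -6.998 ± 0.28. Both kept far below their total libraries in every pair. The lowest of the mitochondrial genes was MT-CO2, a subunit of cytochrome c oxidase, at -7.47 ± 0.28, followed by MT-CYB, then MT-ND1 of complex I at -6.46 ± 0.19. Of the transfer RNAs, MT-TP (proline) had 2, 6, 3 and 4 AGO2-bound counts, against 140, 253, 222 and 361 total counts, and MT-TE (glutamate) had a log2 fold change of -5.95 ± 0.33.

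Nuclear copies of mitochondrial genes followed the genes they derive from, and reads of near-identical copies cannot be assigned with certainty. This class was defined from current gene symbols after the values were seen. All 16 tested were lower on library totals, against 86.5% of all 74 tested features, so the direction alone says little. Their median log2 fold change was -6.14, against -4.95 over all 74, and MTND2P28 turned positive with TMM scaling. They took 0.0955% ± 0.0113 of AGO2-bound counts and 3.53% ± 0.922 of total counts (SD, n = 4 conditions each; exact permutation test, p = 0.0286, adjusted p = 0.0286). Their difference in share was -3.43 percentage points, and -6.25 with hsa-mir-125a left out of the library total. MTND5P11, a copy of MT-ND5, was lowest among those with at least 50 mean counts, at -7.49 ± 0.25. RP5-857K21.11 (now MTCO3P12), RP5-857K21.7 (now MTCO2P12) and MTND4P12 had log2 fold changes of -6.98, -6.62 and -6.26. The feature deposited as hsa-mir-6723 carries the current symbol MTCO1P12 and is such a copy, not a microRNA. MTCYBP18, deposited as CTB-36O1.7, had 0 counts in all 4 AGO2-bound libraries and 34 to 41 in total libraries, so it was at least 67.0-fold lower, taking 3 counts over the group as the limit.

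**Figure D2:**
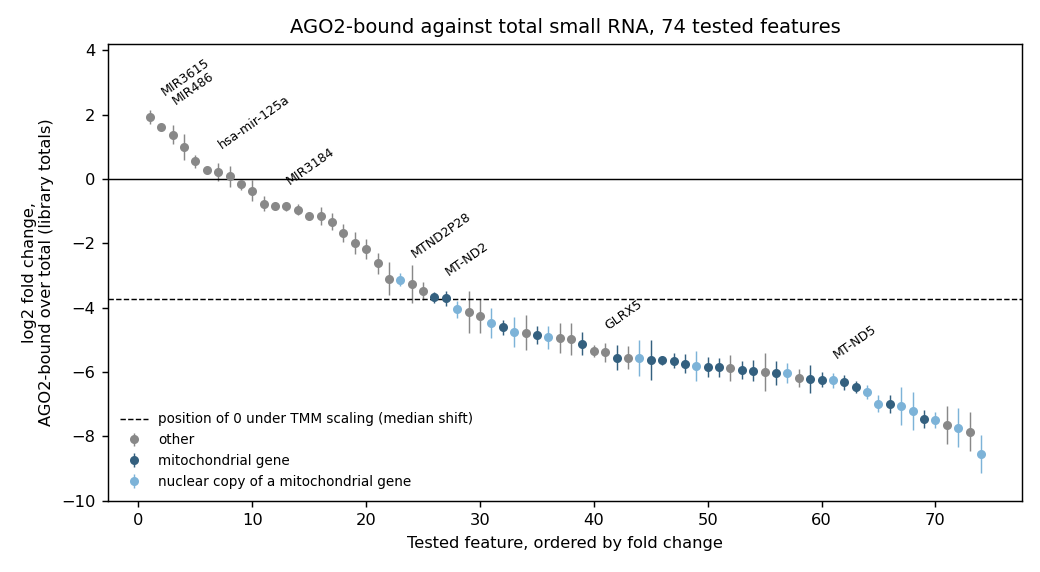
log2 fold change of each of the 74 tested features, AGO2-bound over total on library totals, with bars for the SE, ordered from highest to lowest. MIR486 and MIR3615 sit at the upper end, the mitochondrial genes and their nuclear copies fill the lower part, and the dashed line marks where 0 falls after TMM scaling, 3.73 below, so features between the lines change sign with the scaling.

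MT-ND2, a subunit of complex I, stood apart from the other mitochondrial messenger RNA genes. Its log2 fold change was -3.68 ± 0.17 (SE) on library totals, close to that of the transfer RNA MT-TA, at -3.71 ± 0.23. MT-ND2 had 101, 92, 75 and 101 counts in AGO2-bound libraries, against 818, 788, 1038 and 944 in total libraries. It made up 35.9%, 31.6%, 28.6% and 22.95% of the mitochondrial messenger RNA counts in AGO2-bound libraries, against 6.98%, 5.88%, 7.86% and 5.52% in total libraries. The ratio of MT-ND2 to the other 12 genes was 6.04-fold higher in AGO2-bound RNA (log2 difference 2.59; exact permutation test, p = 0.0286, adjusted over 5 ratios 0.0286), a comparison chosen after the values were seen. Over the 13 genes compared one by one, its adjusted p was 0.062 (exact permutation test), the smallest that 13 such tests gave here. MT-ND1, MT-CO2, MT-ATP8, MT-ND5 and MT-CYB, each with a lower mean share in AGO2-bound libraries, had the same value. It therefore does not mark out MT-ND2. Its nuclear copy MTND2P28 had 97, 87, 71 and 95 counts in AGO2-bound libraries, against 558, 450, 771 and 562 in total libraries, and with a log2 fold change of -3.12 it was the least lowered of the nuclear copies; with TMM scaling it was 0.65. MT-ND5 took 27.4% ± 4.18 of the AGO2-bound mitochondrial messenger RNA counts and 35.9% ± 2.43 of the total ones (SD, n = 4 conditions each, exact permutation adjusted p = 0.062). Shares within this group sum to a fixed total, so a higher MT-ND2 share lowers those of the other genes. Whether the MT-ND5 share differed apart from this was not tested.

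**Figure D3:**
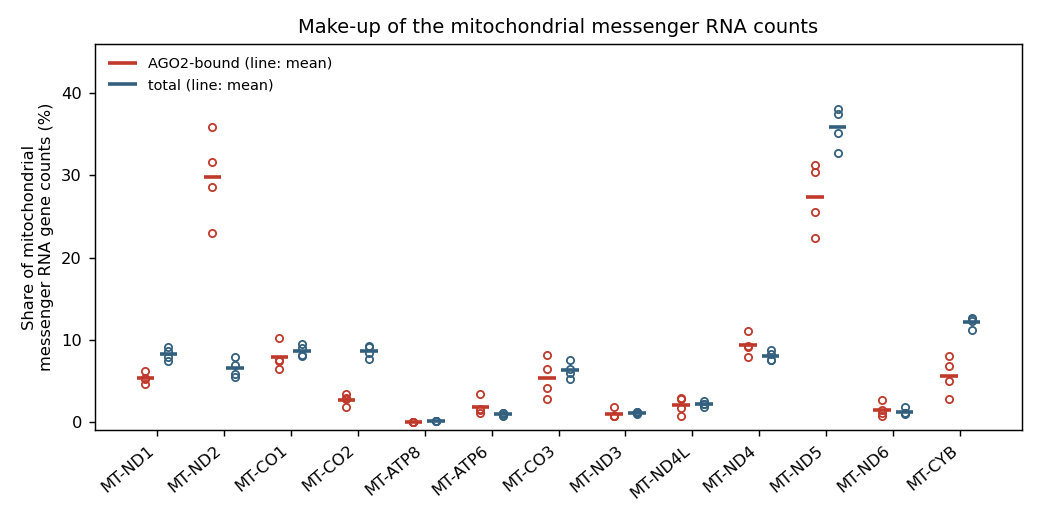
Share of the counts of the 13 mitochondrial messenger RNA genes (%) taken by each gene, with 1 point per library and a line for the mean, AGO2-bound left of total. MT-ND2 lies at 22.95% to 35.9% in AGO2-bound libraries and at 5.52% to 7.86% in total libraries, while MT-CYB and MT-CO2 are lower in AGO2-bound libraries.

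Among mitochondrial transfer RNAs, 8 of the 22 are encoded on the light strand. Those 8 held 77.4%, 86.4%, 81.6% and 82.6% of the mitochondrial transfer RNA counts in AGO2-bound libraries, of only 22 to 46 counts each. In total libraries they held 73.3%, 66.5%, 71.6% and 72.2%, of 643 to 1170 counts. This grouping was made after the values were seen. The features of light-strand transfer RNA genes thus led in both fractions, whichever strand their reads came from. MT-TA (alanine), one of them, had a log2 fold change of -3.71 ± 0.23 on library totals and 0.03 with TMM scaling. MT-TQ (glutamine), another, was at -4.61 ± 0.24 on library totals and at -0.89 with TMM scaling, where it no longer passed the test (edgeR, adjusted p = 0.051).

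Beyond the 3 leading features, the AGO2-bound libraries were led by RP11-125K10.5, for which no current symbol was found. It took rank 4 in all 4 AGO2-bound libraries, with 448, 755, 521 and 727 counts, and ranks 14 to 18 in total libraries, with 365, 710, 427 and 599 counts. Its share was 0.441% ± 0.0950 in AGO2-bound libraries and 0.488% ± 0.0687 in total libraries, a difference smaller than the spread over conditions (edgeR log2 fold change -0.16 ± 0.17, adjusted p = 0.38) that became 3.60 with TMM scaling. HOXA-AS4, which overlaps MIR196B, took rank 5 in all 4 AGO2-bound libraries and ranks 12 to 15 in total libraries. It had 0.268%, 0.287%, 0.305% and 0.260% of AGO2-bound counts, against 0.680%, 0.581%, 0.673% and 0.536% of total counts. Its log2 fold change was -1.14 ± 0.12 (SE; edgeR, adjusted p = 9.47e-05) on library totals and 2.63 with TMM scaling. miR-196b, encoded in the HOXA cluster, is known to target HOX transcripts.

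MIR3074, opposite MIR24-1, had 0.0806%, 0.0876%, 0.0876% and 0.0827% of AGO2-bound counts, against 0.146%, 0.228%, 0.150% and 0.142% of total counts. It was at -0.95 ± 0.17 on library totals and 2.82 with TMM scaling, and it took rank 6 in all 4 AGO2-bound libraries. FSD2, a gene that overlaps the small Cajal body RNA gene SCARNA15 in RefSeq, was at -0.85 ± 0.14 on library totals and 2.92 with TMM scaling, with 364 counts in the AGO2-bound libraries and 510 in the total libraries. MIR24-2, whose ID now belongs to the MIR23A host gene, had 42 counts in each fraction and did not pass the test on library totals (edgeR log2 fold change -0.36 ± 0.33, adjusted p = 0.32; 3.39 with TMM scaling).

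The other 4 features higher in AGO2-bound RNA were small ones, named after their values were seen. MIR3615 had 79, 82, 48 and 70 counts in AGO2-bound libraries, against 12, 13, 11 and 19 in total libraries, with a log2 fold change of 1.93 ± 0.21 (SE; edgeR, adjusted p = 8.69e-05). All 4 AGO2-bound libraries were above all 4 total ones, and the sign was positive under every scaling tried. CACTIN-AS1, an antisense RNA of the CACTIN gene, had 89 AGO2-bound and 28 total counts, a log2 fold change of 1.38 ± 0.29 (SE; edgeR, adjusted p = 0.0030). ATP1A4, a sodium pump subunit of sperm, and ZNF860, a zinc finger gene, were at 0.997 ± 0.40 and 0.55 ± 0.21 (SE; edgeR, adjusted p = 0.045 and 0.039). Both calls were lost with no low-count filter, with DESeq2 on library totals, with microRNA totals and without the X3 let7 pair. The ATP1A4 call was also lost without the KO let7 pair, and the ZNF860 call without the X3 wt pair and without the replicate block.

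Several features of the cell's nuclear genes were lower in share by as much as mitochondrial ones. GLRX5, a mitochondrial glutaredoxin of iron-sulfur cluster assembly, had 21, 18, 9 and 26 counts in AGO2-bound libraries, against 368, 718, 409 and 814 in total libraries. Its log2 fold change was -5.34 ± 0.18 (SE; edgeR, adjusted p = 4.85e-07) and -1.56 with TMM scaling. SHF, whose gene holds the histidine transfer RNA genes TRH-GTG1-7 and TRH-GTG1-8 in RefSeq, had 7 counts in the AGO2-bound libraries and 422 in the total libraries, a log2 fold change of -6.18 ± 0.28. CENPO, a centromere protein gene, and LINC00273 had 0 counts in all AGO2-bound libraries and were at least 36.8-fold and 43.2-fold lower, again taking 3 counts over the group as the limit. Both passed the low-count filter through the total libraries alone, so they could only come out lower. Over the 37 tested features that were neither mitochondrial genes nor nuclear copies, 6 were higher and 27 lower, with a median log2 fold change of -1.99.

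**Figure D4:**
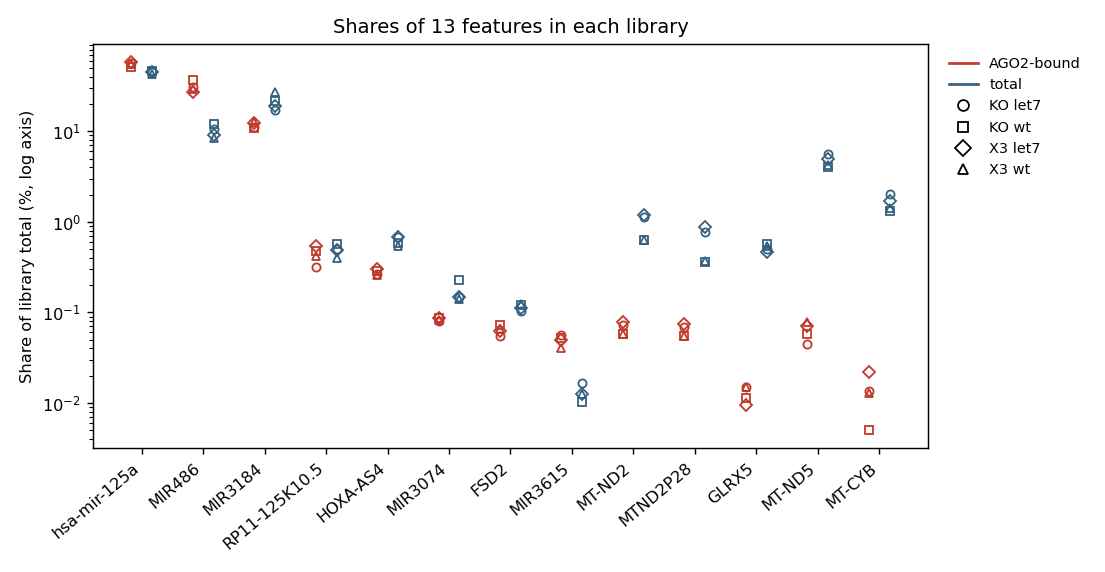
Share of the library total (%, log axis) of 13 features in each of the 8 libraries, with AGO2-bound values left of total ones and a marker for each condition. MIR486 and MIR3615 are higher in AGO2-bound libraries, hsa-mir-125a is slightly higher, RP11-125K10.5 overlaps between fractions, and MT-ND5 and MT-CYB are lower in AGO2-bound libraries by a wide margin.

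Features named as microRNAs, leaving out nuclear mitochondrial copies and the hsa-mir-125a feature, took 42.2%, 47.7%, 40.2% and 42.2% of AGO2-bound counts, against 28.0%, 33.7%, 28.7% and 35.8% of total counts. The means differed by 11.5 percentage points (exact permutation test, p = 0.0286, adjusted p = 0.0286, n = 4 each), and the difference was 6.50 points with an exact p of 0.057 once mitochondrial features were left out of the library total. With hsa-mir-125a left out of the library total instead, it was 38.4 points (exact permutation test, adjusted p = 0.0286). The class rests on MIR486 and MIR3184, whose shares moved in opposite directions. Only 92 of 1376 microRNA features had any count. Small nucleolar, small nuclear, 7SL, Y, vault and ribosomal RNA were near 0 in both fractions: the largest of these classes, C/D box small nucleolar RNA, had 1 count in the AGO2-bound libraries and 8 in the total libraries. Per the file headers, the counted reads were those left unmapped by an earlier alignment step, and the part of that step in these low values was not tested.

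let-7 microRNAs could hardly be measured as features of their own. MIRLET7A1, one of the let-7a genes, had 4, 0, 3 and 0 counts in AGO2-bound libraries, against 4, 0, 0 and 0 in total libraries. All 11 of its counts came from libraries with let-7a transfected. Of the 12 let-7 features listed, 3 had any count, and their share of microRNA counts averaged 0.00406% ± 0.00470 in AGO2-bound libraries and 0.00690% ± 0.00925 in total libraries (SD, n = 4 conditions each; exact permutation test, p = 0.71). MIRLET7E was listed at 0, although its sequence lies within the span of the leading feature. A difference in let-7 loading could not be detected from the few counts of these features. The members with most counts in the miR-181 list were MIR181A1 with 7 AGO2-bound and 4 total counts, and MIR181A2 with 2 and 0 counts in the same order. MIR27B had 3 AGO2-bound and 11 total counts. Over 12 lists of microRNA families, 7 of the 78 features in the table had any count, with 62 AGO2-bound and 63 total counts, and no member passed the test. Listed microRNAs of other cell types were at or near 0, with 12 of 35 features above 0, 31 AGO2-bound counts and 46 total counts. The highest were MIR199A2, a fibroblast and smooth muscle microRNA, with 6 AGO2-bound and 13 total counts, and MIR9-1, a neuronal one, with 11 AGO2-bound and 7 total counts. Most microRNA features had no count at all, so these low values do not bear on cell identity. MIR486 was not on this list.

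Whether the AGO2-bound over total ratio depended on LIN28B state was tested as a difference of log2 ratios, X3 minus KO, with 2 pairs in each state. Doxycycline is listed for the X3 libraries and not for the KO ones, so it cannot be told apart from LIN28B here. No feature of 74 passed an adjusted p under 0.05, which is 0% of those tested (edgeR; 6 had an unadjusted p under 0.05, all higher at X3; DESeq2 also called 0). The smallest p belonged to MT-CO3, a cytochrome c oxidase subunit, whose log2 ratio was 1.28 ± 0.32 higher at X3 (SE; edgeR, adjusted p = 0.14). It had 17 and 36 counts in AGO2-bound X3 libraries, against 8 and 12 in AGO2-bound KO libraries. RP4-536B24.2 and C11orf83 (now UQCC3, an assembly factor of complex III) came next with adjusted p-values of 0.14 and 0.27, and both had 0 counts in the 2 AGO2-bound KO libraries. The 3 leading features differed little: the difference was 0.15 ± 0.11 for hsa-mir-125a, 0.11 ± 0.14 for MIR486 and -0.08 ± 0.12 for MIR3184.

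The same test for let-7a transfection, let7 minus wt, also called no feature, 0% of 74 (edgeR; 4 higher and 5 lower at an unadjusted p under 0.05; DESeq2 called 0, and 1 with library totals as scaling). The smallest p belonged to CTD-2328D6.1 (edgeR log2 difference 4.60 ± 1.13, adjusted p = 0.15). It had 2 and 5 counts in AGO2-bound let7 libraries, against 0 and 1 in AGO2-bound wt libraries. In total small RNA it had 26 and 56 counts in let7 libraries, against 116 and 278 in wt libraries. MTND2P28 and MT-CO3 followed at -0.80 ± 0.21 and -1.11 ± 0.31, each with an adjusted p of 0.15. For MIR3184 the difference was 0.42 ± 0.12 (edgeR, adjusted p = 0.15), and the total libraries gave 17.2% and 19.2% with let-7a, against 21.5% and 27.0% without it. Mitochondrial genes took 16.9% and 16.3% of the total libraries with let-7a, against 11.3% and 12.1% without it, with no overlap, but 2 libraries against 2 cannot reach an exact p under 0.05. In each pair the ranks of the 74 tested features in the AGO2-bound and the total library were moderately alike, with Spearman rho of 0.452, 0.478, 0.438 and 0.507. Over 29 features named as microRNAs, rho was higher, at 0.739, 0.763, 0.741 and 0.666. The features share the library and are not independent replicates.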

How the data were processed

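The authors deposited a table of counts per gene feature for the 8 libraries. The submitters' processing notes list the tools cutadapt and STAR, with the human build hg19. Per the file headers, reads were poly(A)-trimmed and adapter-trimmed, and those unmapped in an earlier step went through bowtie. The strand setting of the counting is not given here. Symbols came from the deposited RPKM table of the let-7a experiment by gene ID (57820 of 57820 matched); RPKM values in another deposited table gave LIN28B. Newer symbols and overlaps came from RefSeq GRCh38.p14.

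From the counts, edgeR 4.0.16 (R 4.3.3) fitted all features kept by its low-count filter (filterByExpr, minimum count 10), with library totals as scaling and the condition as a block, and Benjamini-Hochberg adjustment. The block rests on design: AGO2-bound and total libraries of a pair have the same condition label, and whether they came from one culture is not stated. The alternatives were TMM, DESeq2 size factors, DESeq2 1.42.0, no filter, other totals, no replicate block and leaving out each pair. Shares and ratios were tested by exact permutation over libraries (SciPy 1.17.1); 4 against 4 cannot go below p = 0.0286. Scripts were tested on simulated data. Named features are the 5 of highest mean share in each fraction, up to 10 features with the largest change in each direction (mean count 50 or more), let-7 features (mean count 10 or more), the 2 most abundant of each list or class and the 3 of smallest p in each difference test. Members of classes near 0 are given by their class; other names were chosen after their values were seen, as the text says or in the descriptions of MT-ND2, MIR3074, FSD2, GLRX5, CENPO and LINC00273. The members and lists were chosen with earlier results of these data known.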

Additional observations from a re-analysis of the deposited data

Results flagged for a closer look

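Of 82 sets of 4 libraries looked at, 2 had a library far from the other 3, and chance alone flags about 1 in 20 such sets. C11orf83 took 0.00231% of the AGO2-bound X3 wt library, which is 4 counts, and had 0 counts in the other 3 AGO2-bound libraries. MIR3074 took 0.228% of the total KO wt library, against 0.142% to 0.150% in the other 3 total libraries. The causes were not tested.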

How the results depend on the processing

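The direction of MIR3184, HOXA-AS4, MIR3074 and FSD2 depends on the scaling, while that of MIR486, MIR3615 and most mitochondrial genes does not. Features called higher and lower numbered 22 and 38 with TMM, 22 and 36 with DESeq2 size factors, 21 and 31 with DESeq2, 22 and 41 with the 3 most abundant features left out of the total (chosen after seeing the data), 3 and 65 with microRNA totals, and 3 and 163 with no filter; without the replicate block they numbered 5 and 64, and leaving out 1 pair gave 3 to 5 higher and 60 to 72 lower. DESeq2 with library totals (chosen after seeing the data) called 1 feature higher for let-7a transfection. hsa-mir-125a became -0.17 with microRNA totals.
With TMM, DESeq2 size factors, DESeq2 and the total without the 3 most abundant features, in that order, log2 fold changes turned to 2.94, 2.98, 2.98 and 2.79 for MIR3184, to 3.60, 3.65, 3.65 and 3.45 for RP11-125K10.5, to 2.63, 2.67, 2.68 and 2.47 for HOXA-AS4, to 3.39, 3.38, 3.39 and 3.16 for MIR24-2, to 2.82, 2.85, 2.85 and 2.64 for MIR3074, to 2.92, 2.95, 2.95 and 2.74 for FSD2, and to 0.65, 0.69, 0.69 and 0.49 for MTND2P28. With the first 3 of these they turned to 0.087, 0.131 and 0.131 for MT-ND2 and to 0.033, 0.081 and 0.070 for MT-TA. RP4-536B24.2 turned to 0.38 with TMM, 0.39 with DESeq2 size factors and 0.17 with the total without the 3 most abundant features.
With an exact paired sign-flip permutation test as the replicate block, whose smallest p with 4 pairs is 0.125, the class differences (11.5 percentage points for microRNA features, -0.827 for mitochondrial transfer RNA, -13.1 for mitochondrial messenger RNA and -3.43 for nuclear copies) keep their size and lose the call by design. Leaving out 1 pair, where the exact test cannot go below 0.1, gave 10.6 to 13.2, -0.885 to -0.753, -13.9 to -12.2 and -3.74 to -3.15 points in the same order of classes. Without mitochondrial features the microRNA difference was 6.50 points. Without the most abundant feature the differences were 38.4, -1.50, -23.9 and -6.25 points in that order, all still past the test. MT-TQ lost its call with TMM (-0.89), DESeq2 size factors (-0.82) and DESeq2 (-0.83). ATP1A4 and ZNF860 lost theirs with no filter (adjusted p = 0.76 and 0.75 in edgeR), with DESeq2 on library totals (0.19 and 0.21) and with microRNA totals (0.21 and 0.72 in edgeR), and ZNF860 without the replicate block (0.086). ATP1A4 was not among the features tested without the KO wt pair or without the X3 wt pair. All p-values rest on 1 library per condition and fraction, and counts outside the 3 leading features are few in AGO2-bound libraries, which limits every other feature there.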
